A study of Mus musculus with 5 samples.

Results

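The second hour of neural induction was described by setting the 2 h library against the 1 h library at every transcription start site of an ATAC-seq table from C17.2, an immortalised line of multipotent neural stem cells made from mouse (strain CD1 x C57BL/6). ATAC-seq marks open chromatin by the places where a transposase inserts adapters. The cells grew in DMEM/F12 with fetal bovine serum, and induction was a change to Knockout DMEM with GlutaMAX and N2 supplement, so the 1 h and 2 h cells shared medium and cell line and differed in time after the change. All 34714 sites of the table, which carried 8034 gene symbols, entered the comparison, and 2 of the 5 libraries made it up (the others were taken at 0, 0.5 and 1.5 h). Each time had 1 library, so no difference below has a replicate check, a test or an error. C17.2 is a single line grown in culture, and the induction medium both lacked serum and held N2, which cannot be told apart here.

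The value of a site was a whole number from 0 to 10, read as the number of entries in that library's interval file over the site. A site was called covered with 1 or more entries, gained when it held 0 at 1 h and at least 1 at 2 h, and lost in the reverse case. Each gene was represented by 1 site, the one whose mean over all 5 libraries was highest. Entries are not reads: the depth is unknown, and a value of 0 says only that the site was not called covered.

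Active promoters in mammals usually lie in a stretch of chromatin kept free of nucleosomes by transcription factors, remodelling complexes and the transcription machinery, and many of them are CpG islands, rich in G, C and the CpG dinucleotide. Proneural factors, Notch, Wnt and TGF-beta/BMP signals and chromatin enzymes are known to shape the path from neural stem cells to neurons or glia. Genes of metabolism and of basic RNA and protein handling have promoters that are open in nearly every cell type.

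The promoters at which the libraries differed are shown by examples that carry the contrast between gained, lost and unaltered start sites. Each is the 200 bases before an annotated start of RefSeq, build GRCm38.p6, on the strand of the gene, 5′ to 3′, and the capitals mark the bases of the deposited site. Of genes whose site lay in such a window before any other annotated 5′ end of the gene, 30 were gained and 2 were lost. The 5 gained genes with the highest ratio of 2 h to 1 h, both lost genes and 2 genes with the same high value at both times are given. Ankrd52, an ankyrin repeat subunit of a protein phosphatase, chr10:128376924-128377123, plus strand, held 0, 3, 0, 4 and 4 entries at 0, 0.5, 1, 1.5 and 2 h, the order used throughout.
Ankrd52: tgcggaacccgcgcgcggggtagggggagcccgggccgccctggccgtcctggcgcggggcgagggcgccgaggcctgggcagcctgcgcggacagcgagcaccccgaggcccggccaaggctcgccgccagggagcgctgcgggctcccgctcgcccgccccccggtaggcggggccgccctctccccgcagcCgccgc
Trak1, a kinesin adaptor on mitochondria, chr9:121297302-121297501, plus strand, held 0, 6, 0, 2 and 4.
Trak1: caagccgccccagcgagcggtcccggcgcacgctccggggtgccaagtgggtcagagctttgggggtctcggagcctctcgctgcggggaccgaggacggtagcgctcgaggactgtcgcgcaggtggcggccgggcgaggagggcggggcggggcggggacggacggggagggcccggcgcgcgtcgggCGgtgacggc
Arl8a, a small GTPase of lysosome transport, chr1:135146634-135146833, plus strand, held 0, 0, 0, 2 and 3.
Arl8a: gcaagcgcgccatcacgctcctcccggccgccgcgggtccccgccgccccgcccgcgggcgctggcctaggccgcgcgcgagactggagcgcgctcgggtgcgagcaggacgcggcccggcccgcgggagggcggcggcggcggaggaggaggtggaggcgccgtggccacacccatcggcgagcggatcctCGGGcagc
Cd276, a B7-family surface protein, chr9:58555034-58555233, minus strand, held 3, 3, 0, 4 and 3.
Cd276: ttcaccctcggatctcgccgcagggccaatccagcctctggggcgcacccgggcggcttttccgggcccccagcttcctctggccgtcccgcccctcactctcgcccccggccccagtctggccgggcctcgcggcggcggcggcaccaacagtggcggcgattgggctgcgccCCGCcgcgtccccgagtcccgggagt
Ctdspl, a small C-terminal domain phosphatase, chr9:118926336-118926535, plus strand, held 0, 0, 0, 2 and 3.
Ctdspl: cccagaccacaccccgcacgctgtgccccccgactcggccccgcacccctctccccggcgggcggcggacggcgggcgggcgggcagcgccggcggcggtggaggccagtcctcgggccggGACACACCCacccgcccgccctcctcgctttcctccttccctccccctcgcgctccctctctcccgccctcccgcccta
The lost gene Adssl1, an enzyme of purine nucleotide synthesis, chr12:112619847-112620046, plus strand, held 1, 1, 1, 1 and 0.
Adssl1: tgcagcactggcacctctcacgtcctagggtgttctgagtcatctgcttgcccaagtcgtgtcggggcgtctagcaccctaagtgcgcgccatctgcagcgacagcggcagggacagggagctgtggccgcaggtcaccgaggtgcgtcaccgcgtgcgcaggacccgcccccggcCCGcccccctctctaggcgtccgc
The lost gene Rapgef1, an exchange factor for Rap1, chr2:29619520-29619719, plus strand, held 1, 2, 1, 1 and 0.
Rapgef1: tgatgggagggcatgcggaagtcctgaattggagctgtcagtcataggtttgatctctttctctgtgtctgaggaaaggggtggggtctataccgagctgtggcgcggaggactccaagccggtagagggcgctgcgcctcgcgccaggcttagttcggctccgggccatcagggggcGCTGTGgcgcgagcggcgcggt
Ctnna3, an alpha-catenin, chr10:63429898-63430097, plus strand, was covered throughout with 4, 4, 5, 5 and 5.
Ctnna3: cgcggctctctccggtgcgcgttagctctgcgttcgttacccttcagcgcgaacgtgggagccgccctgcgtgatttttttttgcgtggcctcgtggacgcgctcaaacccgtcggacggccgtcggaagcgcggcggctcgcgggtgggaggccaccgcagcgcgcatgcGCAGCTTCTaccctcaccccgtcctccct
Lpcat4, a phospholipid acyltransferase, chr2:112239641-112239840, plus strand, was covered throughout with 5, 4, 5, 3 and 5.
Lpcat4: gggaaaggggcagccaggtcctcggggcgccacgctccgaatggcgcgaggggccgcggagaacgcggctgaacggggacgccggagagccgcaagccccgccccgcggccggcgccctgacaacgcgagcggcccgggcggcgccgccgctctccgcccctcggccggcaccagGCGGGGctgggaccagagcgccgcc

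The 5 gained sequences held 76.5% to 84% G and C and 25 to 36 CpG, against 69% and 63.5% G and C with 19 and 17 CpG in the lost pair. The covered pair did not stand on one side, with 68.5% G and C for Ctnna3 and 81% for Lpcat4. All genes whose own site fell in a RefSeq promoter window, from 250 bases before to 50 after a start, were then counted, 2838 in all. The median G and C content was 74.7% for the 139 gained genes (interquartile range 68.7% to 78.7%), 68% for the 2278 covered at both times (63.3% to 73%), 70.3% for the 413 uncovered at both and 64.2% for 8 lost genes. Over the 32817 distinct windows of the table it was 52.7%. The median number of CpG per window was 37 in gained, 31 in covered, 30 in uncovered and 27.5 in lost genes, and 7 over all windows. Gained promoters were therefore the most GC-rich of the 4 groups, with interquartile ranges that overlapped.

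Short motifs were searched on both strands of the same 300-base windows. The ETS core CCGGAAG was present in 4.32% of gained, 18.7% of covered, 6.54% of uncovered and 8.86% of all promoters. The NRF1 core CGCATGCG was present in 1.44% of gained and 6.15% of covered promoters, beside 1.69% of uncovered and 1.86% of all. CCAAT was present in 20.1% of gained, 34.4% of covered, 23.7% of uncovered and 37.4% of all promoters. For these 3 motifs, gained promoters lay nearer to the promoters uncovered at both times than to those covered at both. The GC box GGGCGG, to which SP factors bind, stood in 92.1% of gained, 85.8% of covered and 84.7% of uncovered promoters, and in 35.6% of all. The E-box CACGTG stood in 5.76% of gained, 11.5% of covered, 12.6% of uncovered and 7.15% of all promoters. The other 4 motifs were each in under 10% of gained, covered and uncovered promoters: TGANTCA of AP-1 in 0.719% of gained and 2.9% of covered promoters, TGACGTCA of the cAMP response in 2.16% and 3.6%, the TATA box TATAAA in 3.6% and 6.67%, and AAGATGG of YY1 in 2.88% and 5.58%. In uncovered promoters these 4 stood in 2.42%, 3.87%, 8.72% and 2.91%, and over all promoters in 7.81%, 1.79%, 13.6% and 6.34%. The AP-1, TATA and YY1 motifs were thus scarcer in the gained, covered and uncovered groups than over all promoters. The AP-1 share of gained promoters rests on 1 of 139. A match is a run of letters and not a bound site. The groups also differed in G and C content, as given above, and its part in these shares was not tested.

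The 1 h library stood apart from the later ones, and every gain below rests on it. It covered 5824 genes, the fewest of the 5 libraries, which covered 5845, 6151, 5824, 6374 and 6295 in order of time. It was also the library in which 150 genes were uncovered while all 4 others covered them. The same count was 190 for the 0 h library and 18, 3 and 20 for those of 0.5, 1.5 and 2 h. Taking another library as the earlier one, 2 h covered 531 genes that 0 h did not, 242 that 0.5 h did not and 73 that 1.5 h did not, and left uncovered 81, 98 and 152 that these had covered. Entries summed over genes were 15086, 17011, 14850, 17505 and 15909 in order of time, lowest at 1 h. Over all sites the 1 h library held 45254 entries and the 2 h library 59437. Whether depth or peak calling differed between the libraries was not tested, since the table holds no read depth.

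The number of covered genes went from 5824 at 1 h (72.5%) to 6295 at 2 h (78.4%). Of the 8034 genes, 511 were gained (6.36%) and 40 were lost (0.498%), so gains made up 92.7% of the genes that switched. Put against the genes that could switch, 23.1% of the 2210 uncovered at 1 h were gained and 0.687% of the 5824 covered at 1 h were lost. The other genes were 5784 covered at both times and 1699 covered at neither. The excess of gains depended on where coverage was set: with at least 2 entries as the mark, 782 genes were gained and 414 lost, and gains made up 65.4%.

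**Figure D1:**
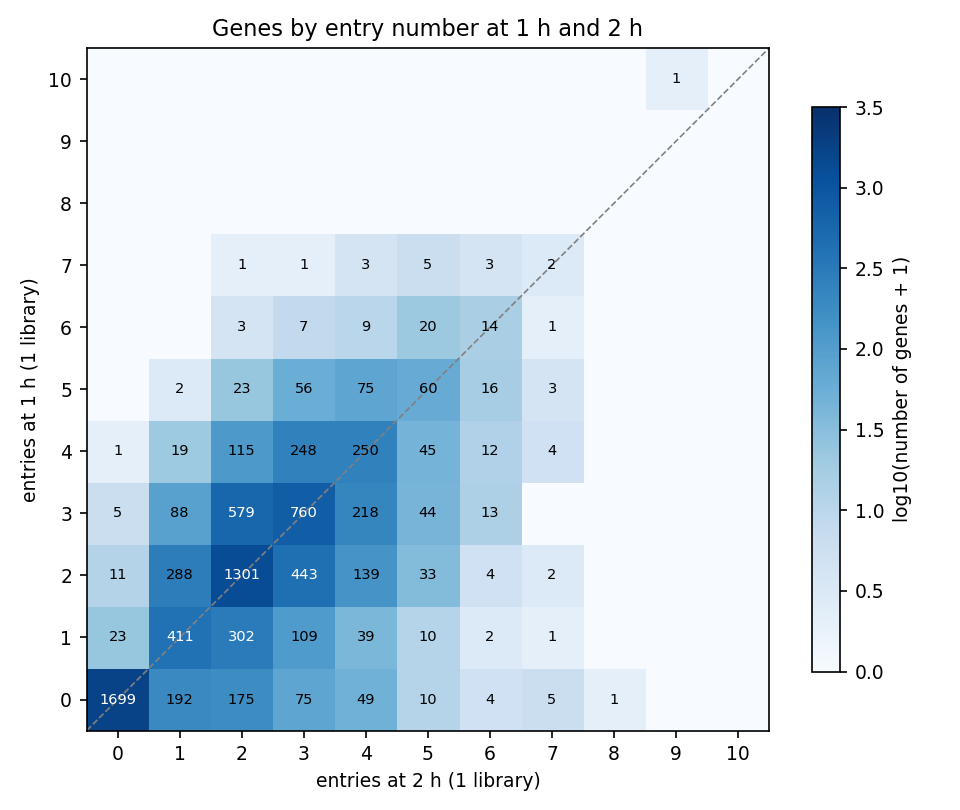
Entries at 2 h (horizontal) and at 1 h (vertical) for the 8034 genes, with the number of genes printed in each cell; colour follows the logarithm of that number. The bottom row right of 0 holds the 511 gained genes and the column at 0 above the bottom row the 40 lost genes, most of them close to the corner; the dashed line marks equal values.

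Among sites the same excess appeared. Of 34714 sites, 5188 were gained (14.9%) and 167 lost (0.481%), and covered sites went from 17769 (51.2%) to 22790 (65.7%). Neighbouring sites share entries, so sites were also merged into 9217 regions, of which 561 were gained and 51 lost. Most gained sites, 3413 or 65.8%, belonged to genes already covered at 1 h through another site, and 1691 belonged to gained genes. Of the lost sites, 97 (58.1%) belonged to genes covered at both times and 55 to lost genes.

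Genes covered at both times showed almost no net difference. Of the 5784, 1440 held more entries at 2 h (24.9%), 1546 held fewer (26.7%) and 2798 held the same number, and their mean went from 2.556 to 2.564 entries. Over all 8034 genes 1951 held more entries (24.3%) and 1586 fewer (19.7%), and the median log2 ratio of (entries + 1) was 0. A 2-fold difference on this scale was reached upward by 711 genes (8.85%) and downward by 177 (2.2%), a split of 80.1% upward. After the 2 h values were scaled to the 1 h mean of genes covered in both libraries, by a factor of 0.997, 377 were higher and 177 lower (68.1% upward). This factor took out the 334 genes exactly at 2-fold higher and kept the 135 exactly at 2-fold lower. The smaller upward share therefore came from ties at the threshold, which were dropped on the upward side alone. Scaling to equal total entries over all sites, by a factor of 0.761, shifted the median of all genes to -0.18. It gave 373 higher and 184 lower (67% upward).

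Genes were also grouped by the entries they held at 1 h. Of the 897 genes with 1 entry at 1 h, 2.56% were uncovered and 51.6% held more at 2 h. For the 2221 genes with 2 entries these shares were 0.495% and 28%, and 13.5% held fewer. For the 1707 genes with 3 entries 0.293% were uncovered, 16.1% held more and 39.4% held fewer. Of the 694 genes with 4 entries 8.79% held more and 55.2% fewer, and of the 235 with 5 entries 8.09% held more and 66.4% fewer. A gene with few entries at 1 h more often held more at 2 h, and a gene with many more often held fewer. The groups were formed on one of the values compared, which alone tends to give such a slope. It is therefore no result about the genes. The counts of the gene groups below are to be read against the shares by entries at 1 h.

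Gains were mostly small. At 2 h 192 of the 511 gained genes held 1 entry (37.6%), 175 held 2, 75 held 3 and 69 held 4 or more (13.5%). Just outside the rule, 463 genes went from 1 entry at 1 h to 2 or more. Of the 40 lost genes 23 had held 1 entry at 1 h (57.5%), 11 had held 2, 5 had held 3 and 1 had held 4, and 397 genes just outside went from 2 or more entries to 1.

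The gained genes with the highest ratios carry regulators of transcription, receptors and signalling enzymes. Tsc22d2, a leucine zipper protein of the TSC22 family, held 1, 6, 0, 7 and 8 entries 645 bp downstream of its 5′ end (chr3:58415347-58415348), a log2 ratio of 3.17. Its other start sites were not all empty at 1 h: 3 of its 8 sites were covered then, with at most 2 entries, and all 8 at 2 h. Setd7, a lysine methyltransferase, held 7, 6, 0, 6 and 7 entries 393 bp inside the gene (chr3:51560427-51560434), and its 3 sites were all empty at 1 h and covered at 2 h. Adgrl3, a latrophilin adhesion receptor of synapses, held 7, 8, 0, 5 and 7, with all 6 sites switching on. At the sites that stand for these 3 genes the 1 h library was the only one at 0. Other sites of Adgrl3 and Tsc22d2 ran differently. The Adgrl3 site 815 bp inside the gene held 0, 0, 0, 1 and 1, and that 1320 bp inside held 0, 8, 0, 0 and 7. The Tsc22d2 site 268 bp inside the gene held 0, 0, 0, 7 and 8.

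Other high gainers held 0 entries at 0 h too, at the site that stands for the gene. Nr3c1, the glucocorticoid receptor gene, held 0, 5, 0, 7 and 7 entries 28829 bp downstream of its 5′ end, and 14 of its 16 sites were gained. Runx2, a Runt transcription factor known from bone, held 0, 4, 0, 4 and 7 entries 78317 bp downstream of its 5′ end (chr17:44736478-44736482). The other 2 of its 7 sites held 2 entries in each of the 5 libraries. Kdm7a, a histone demethylase, held 0, 3, 0, 7 and 6, and all 21 of its sites were empty at 1 h and covered at 2 h. Zic5, a zinc finger factor of neural progenitors, held 0, 5, 0, 6 and 6, and Sgms1, a sphingomyelin synthase, held 0, 4, 0, 5 and 6, each with 4 of 4 sites gained. At the sites that stand for these 5 genes, entries were held at 0.5 h, absent at 1 h and held again at 1.5 and 2 h.

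A further set was first covered at 1.5 h. Fzd8, a Wnt receptor, held 0, 0, 0, 7 and 7 entries 833 bp downstream of its 5′ end, while its second site held 0 at 2 h. Tnks, the poly-ADP-ribosyltransferase tankyrase, held 0, 0, 0, 3 and 5, and Sfmbt1, a Polycomb-associated MBT protein, held 0, 0, 0, 4 and 5 with 19 of 20 sites gained. The remaining genes of the 15 with the highest ratios were Smurf2 (0, 4, 0, 5 and 5), Zfp609 (0, 3, 0, 3 and 5), Pde7a (2, 3, 0, 6 and 5) and Pde3b (0, 4, 0, 6 and 5). Pde7a and Pde3b are cyclic nucleotide phosphodiesterases, and all 17 and all 10 of their sites were gained. None of the 15 was lower at 1.5 h than 3 entries. With each gene read at its site nearest the annotated 5′ end, the log2 ratio of Runx2 and of Sfmbt1 was 0. By that site the ratio of Adgrl3 was 1, in place of 3, and that of Tsc22d2 was 1.58.

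**Figure D2:**
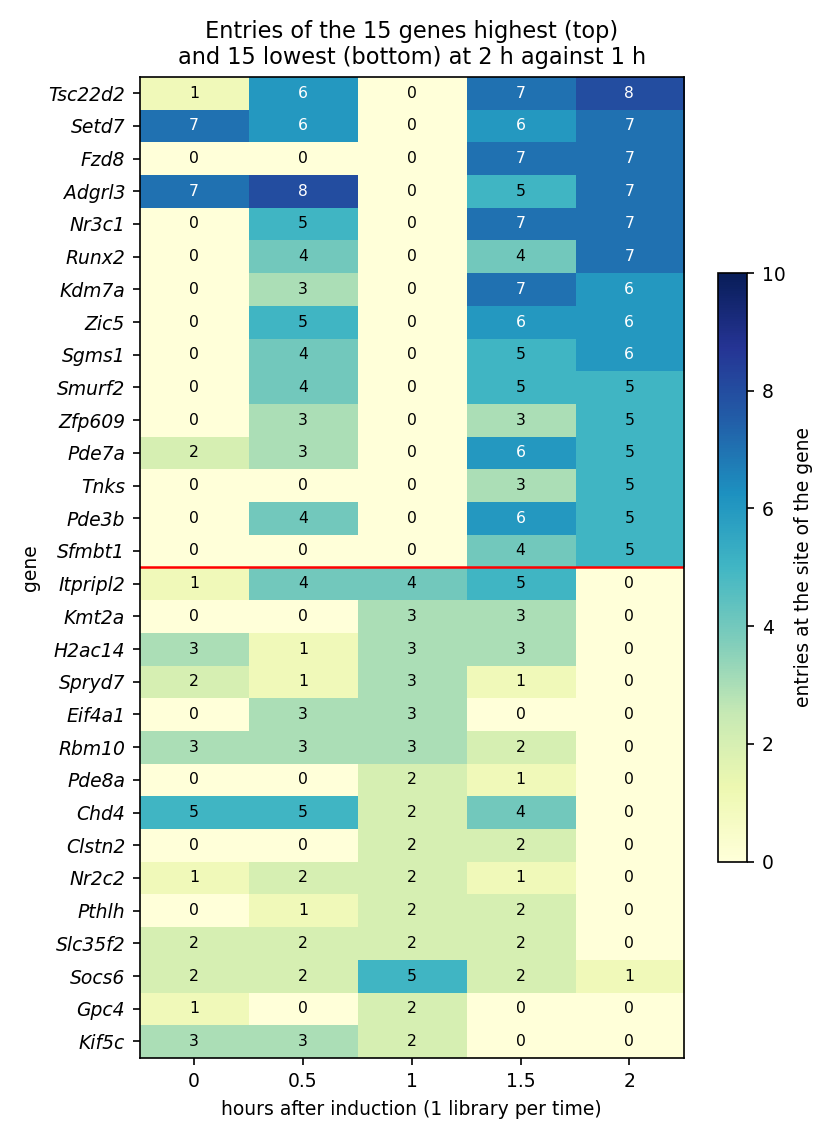
Entries of the 15 genes with the highest and the 15 with the lowest log2 ratio of 2 h to 1 h, by library from 0 to 2 h; each cell prints the number of entries of the gene's site. The upper genes hold 0 at 1 h and 5 to 8 at 2 h, and all lower genes but Socs6 hold 0 at 2 h.

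Lost genes had fewer entries to lose. Itpripl2, an inositol trisphosphate receptor-interacting protein-like gene, held 1, 4, 4, 5 and 0 entries 1166 bp inside the gene (chr7:118490807-118490812), a log2 ratio of -2.32 and the lowest of all. Kmt2a, the histone H3 lysine methyltransferase also called MLL, held 0, 0, 3, 3 and 0 entries 164 bp inside the gene (chr9:44881186-44881191), and both of its sites were lost. Chd4, a helicase-like ATPase in NuRD, held 5, 5, 2, 4 and 0 at its only site, 54 bp upstream of the gene (chr6:125095924-125095928). These 3 genes were covered at 1.5 h with 3 to 5 entries, so of the last 3 libraries the 2 h one alone was at 0.

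The histone gene H2ac14 held 3, 1, 3, 3 and 0, the RNA-binding splicing regulator Rbm10 held 3, 3, 3, 2 and 0, and Slc35f2, a solute carrier, held 2 in every library before 0 at 2 h. Eif4a1, the translation initiation helicase, held 0, 3, 3, 0 and 0, and Kif5c, a neuronal kinesin, held 3, 3, 2, 0 and 0, so both were already empty at 1.5 h. H2ac14 belongs to the replication-dependent histone family of near-identical copies, and its reads may be shared with them. Nr2c2, an orphan nuclear receptor, held 1, 2, 2, 1 and 0 at the site that stands for it, yet 4 of its 11 sites were gained and 1 was lost, and by the site nearest the 5′ end its log2 ratio was 0. The others were Spryd7 (2, 1, 3, 1 and 0), Pde8a (0, 0, 2, 1 and 0), Clstn2 (0, 0, 2, 2 and 0), Pthlh (0, 1, 2, 2 and 0) and Gpc4 (1, 0, 2, 0 and 0). Socs6, a suppressor of cytokine signalling, was the 1 gene of the 15 that stayed covered, with 2, 2, 5, 2 and 1.

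Most gained genes were covered in other libraries of the series. Those libraries did not define a gain, but they entered the mean that chose the site of each gene. The libraries at 0, 0.5 and 1.5 h covered 191 (37.4%), 305 (59.7%) and 444 (86.9%) of the 511 gained genes. By the site nearest the 5′ end, whose choice used no values, these shares were 29.5%, 52% and 86.3%. By pattern, 150 were covered at all 3 of these times (29.4%), 143 at 0.5 and 1.5 h only of the 3, 124 at 1.5 h only of the 3, and 44 at none of them (8.61%). The remaining patterns held 27 genes covered at 0 and 1.5 h, 11 at 0 h alone, 9 at 0.5 h alone and 3 at 0 and 0.5 h. For comparison, genes uncovered at both 1 h and 2 h were covered at 0, 0.5 and 1.5 h in 3.18%, 4.12% and 7.18% of cases, and genes covered at both in 96.4%, 99.4% and 99.9%. The mean of the gained genes ran 0.746, 1.339, 0, 2.127 and 2.114 entries. Of the 444 covered at 1.5 h, 197 held the same number at 2 h, 89 more and 158 fewer.

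**Figure D3:**
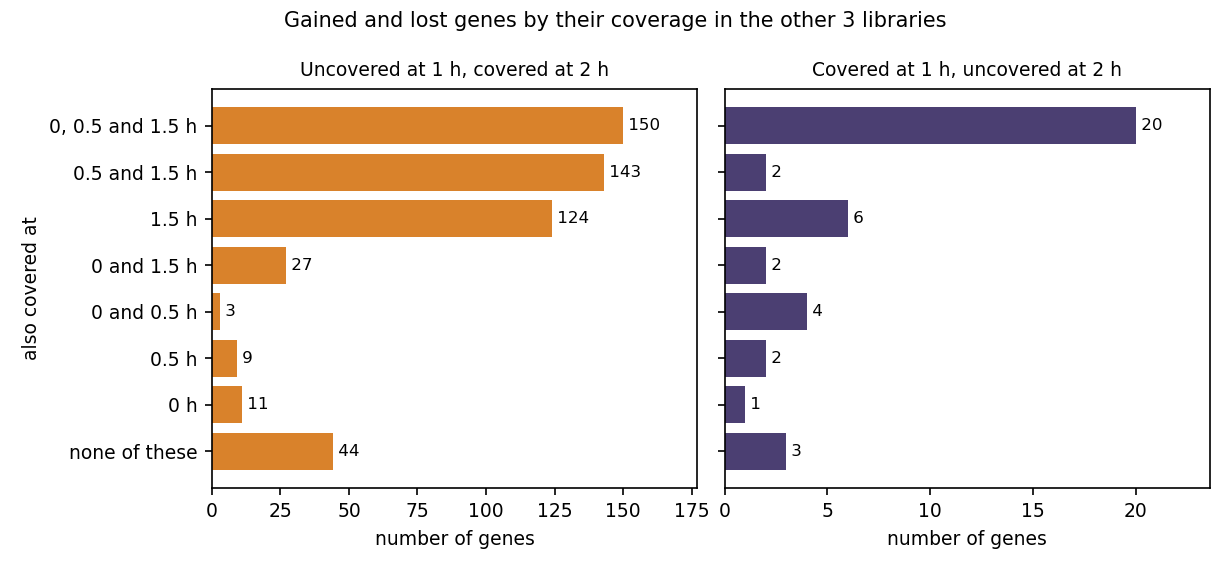
Gained (511) and lost (40) genes by whether they were covered at 0, 0.5 and 1.5 h, 3 libraries that did not define gain or loss but entered the choice of each gene's site; bars give the number of genes. Most gained genes were covered at 1.5 h, and 20 of the 40 lost genes were covered at all 3 times.

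Genes covered only in the 2 h library were few and low. Usf2, a basic helix-loop-helix factor that binds E-boxes, and Csnk1e, casein kinase 1 epsilon of the circadian clock, each held 0, 0, 0, 0 and 3, and Bmp2, a bone morphogenetic protein, held 0, 0, 0, 0 and 2 at 13 bp from its 5′ end with 5 of 7 sites gained. For Csnk1e the site lay 13795 bp inside the gene, and it was 1 of 9. By the site nearest the 5′ end the log2 ratio was 0 for Csnk1e, and also for Mdga1, Nsd1 and Mta1, named next. Genes covered at 0.5 h and 2 h but at no other time included Mdga1, an adhesion molecule of synapses, and Tcf7, a Wnt effector, with 0, 4, 0, 0, 4 and 0, 1, 0, 0, 4 entries, and the microRNA gene Mir203 with 0, 2, 0, 0 and 3. Nsd1, a histone H3 methyltransferase, held 5, 0, 0, 3 and 4, Drap1 held 2, 0, 0, 2 and 4, and Mapkapk5 held 2, 0, 0, 3 and 3. Rare patterns were Sestd1 (2, 2, 0, 0 and 3), Prss56 (2, 2, 0, 0 and 2), and Mta1 (2, 0, 0, 0 and 1).

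The libraries at 0, 0.5 and 1.5 h covered 27 (67.5%), 28 (70%) and 30 (75%) of the 40 lost genes, and 20 were covered in all 3 (50%). Covered at 1 h alone were 3 genes, among them Penk, the enkephalin precursor, and Gnasas1, each with 1 entry. Gnasas1 is an antisense transcript, and the strand of the site was not used here to separate it from its partner. The mean of the lost genes ran 1.425, 1.375, 1.6, 1.7 and 0 entries. Cic, a transcriptional repressor, held 7, 1, 1, 0 and 0, and by its highest site in each library its log2 ratio was 0.58 in place of -1, so it was not lost by that measure.

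The other pair of libraries 1 h apart, 0.5 h and 1.5 h, shares no library with 1 h and 2 h. From 0.5 h to 1.5 h, 269 genes were gained (3.35%) and 46 lost (0.573%), and 14.3% of the genes uncovered at 0.5 h were gained. Both gained lists shared 151 genes, which was 29.5% of the 511 and 56.1% of the 269. Of the 511, 293 were covered at both 0.5 h and 1.5 h, 55 at neither, and 12 were lost between them. Only 6 lost genes were shared, 15% of the 40 and 13% of the 46, and 8 of the 40 were gained from 0.5 h to 1.5 h.

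Where a site lay along its gene bore on whether it was gained. The signed distance of a gene's site from the annotated 5′ end, negative upstream, had a median of 342.5 bp in gained genes. It was 124 bp in genes covered at both times, 361.5 bp in those uncovered at both and 643 bp in lost genes. Upstream lay the site of 13.9% of gained and 22.9% of covered genes. Within 100 bp on either side lay 23.9% of gained, 41.9% of covered and 31.4% of lost genes, where 476, 5438 and 35 had a distance. Over all named sites with a distance, coverage was highest in the 100 bp upstream of the 5′ end, where it went from 71.2% to 80%. It went from 51.4% to 69.8% between 250 and 500 bp inside the gene, and from 55.5% to 72.5% between 250 and 500 bp upstream. Of sites uncovered at 1 h, 39.3% were gained in that upstream stretch and 37.9% between 100 and 250 bp upstream. The share was 32% in the 100 bp upstream, 37.1% in the first 100 bp inside the gene, 37.5% from 100 to 250 bp and 38.5% from 250 to 500 bp. From 10000 bp on it was 21.5%. Lost sites were 0.561% of the covered ones in the 100 bp upstream and 2.47% between 500 and 750 bp inside. The share of uncovered sites that were gained was thus nearly level from 500 bp upstream to 500 bp inside, apart from the 100 bp upstream of the start, and lower far inside the gene. Coverage at 2 h exceeded that at 1 h by fewer percentage points at the start than on its flanks, where more sites were uncovered at 1 h.

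**Figure D4:**
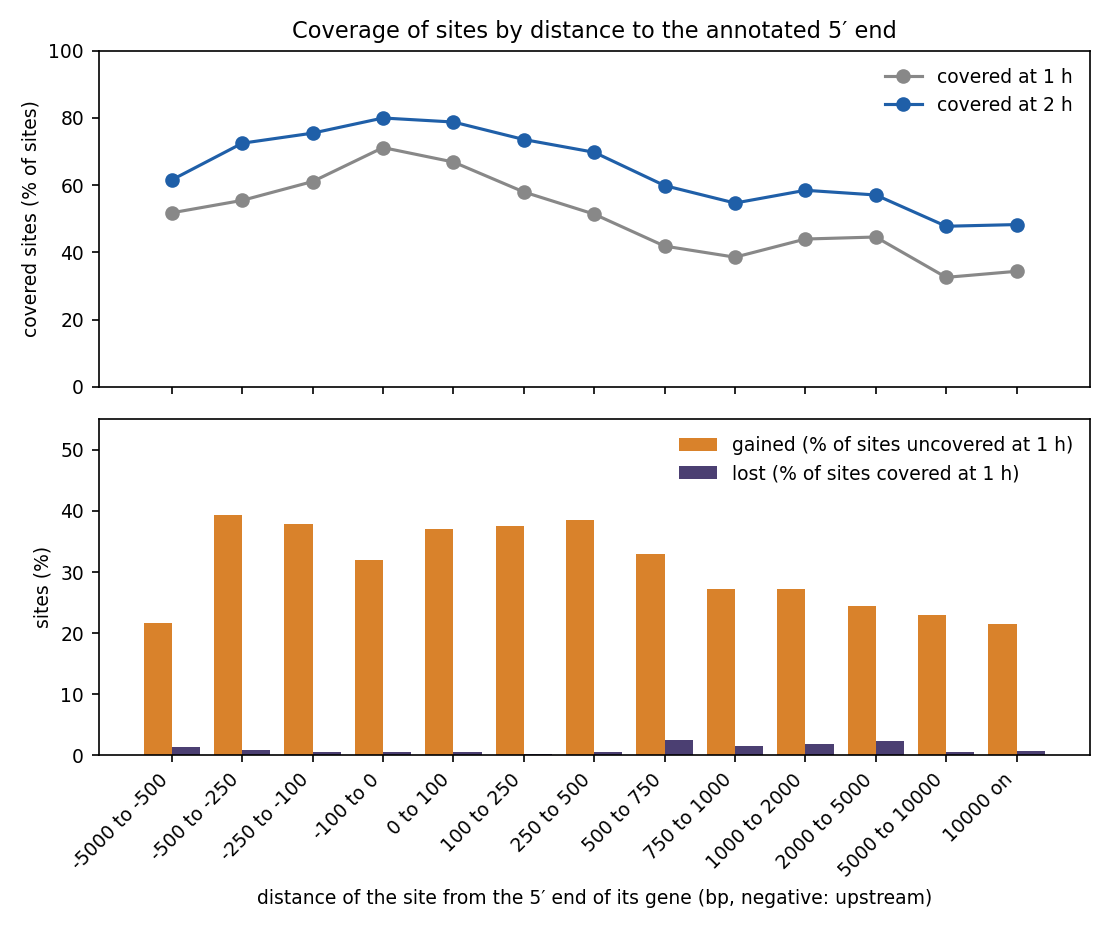
Sites by distance from the annotated 5′ end of their gene, in bins: share covered at 1 h and at 2 h, share of uncovered sites that were gained and share of covered sites that were lost, all in percent. Coverage at 2 h lies above that at 1 h in every bin, with the widest gap between 250 and 500 bp on the gene side and 500 to 750 bp.

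Of the 511 gained genes 400 had more than 1 site. In 377 of those no site was covered at 1 h, so the gene as a whole was empty then, and in 161 every site went from empty to covered. Their covered sites went from 63 to 1635 of 2679 (2.35% to 61%). Of the 18 lost genes with several sites 12 had no covered site at 2 h, and in 5 every site went from covered to empty. Of the 3952 genes with several sites covered at both times, 1077 had more covered sites at 2 h (27.3%) and 50 had fewer (1.27%), and their covered sites went from 15577 (68.2%) to 18893 (82.8%) of 22824. So coverage spread over further sites in genes whose number of entries at the main site did not differ on balance. By chromosome, leaving out Y with 3 genes and 0 gained, the share of gained genes ran from 3.69% on chromosome 16 to 8.71% on chromosome 3.

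The gene lists were written with earlier results of these data known, and each is given by its counts beside those of all genes, of which 6.36% were gained, 24.3% held more entries and 19.7% fewer. The TGF-beta and BMP list had the most one-sided counts of the larger lists. Of its 34 measured genes 8 were gained and 0 lost, 18 held more entries and 2 fewer, and the median log2 ratio was 0.37 against 0 for all genes. Among ligands and their carriers, Bmp2 was gained as above, and Ltbp1, which stores latent TGF-beta in the matrix, held 5, 3, 0, 4 and 3. Bmpr2, the type II BMP receptor, held 3, 3, 3, 4 and 6. Inside the cell, Smurf2, a ubiquitin ligase of SMADs and receptors, held 0, 4, 0, 5 and 5, and Skil, the SnoN co-repressor of SMADs, held 0, 1, 0, 7 and 4. The other gained members, named after their values were seen, were Bmpr1a (2, 3, 0, 3 and 2), Nog (0, 1, 0, 4 and 1), Tgfb1 (4, 3, 0, 1 and 1) and Ltbp3 (1, 1, 0, 1 and 1). Fewer entries were held by Inhbb, an activin subunit, with 3 at 1 h and 2 at 2 h, and Tgfbr2, the type II TGF-beta receptor, with 4 and 3. The list thus holds activators and inhibitors of the pathway alike.

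Of 17 circadian clock genes 11 held more entries and 2 fewer, 4 were gained and 0 lost, and the median log2 ratio was 0.42. Nfil3, a repressor of D-box genes, held 2, 3, 0, 1 and 4, Npas2, a partner of BMAL1, held 0, 1, 0, 2 and 3, and Bhlhe41, a repressor of the clock, held 3, 4, 3, 4 and 5. Csnk1e was covered only at 2 h, as was the fourth gained gene Dbp, with 2 entries, named after its value was seen. Fbxl21 held 2, 2, 3, 1 and 2 and Nr1d2, a REV-ERB repressor, 2, 2, 3, 3 and 2, each 1 entry below its 1 h value. Csnk1e and Dbp were gained at sites 13795 and 1940 bp inside their genes.

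Proneural and neuronal transcription factors were mostly uncovered at 1 h. Of 26 measured genes 17 were uncovered then, 6 of them were gained, 0 were lost, 8 held more entries and 1 held fewer. The gained genes were 35.3% of those uncovered at 1 h, beside 23.1% over all genes uncovered then. Sox4, a SoxC factor of young neurons, held 2, 2, 0, 6 and 3. Ebf1 held 0, 2, 0, 2 and 2, and Eomes, which marks intermediate progenitors, held 0, 1, 0, 2 and 2. Neurog1 (0, 2, 0, 1 and 1) and Pou3f1 (1, 2, 0, 1 and 1) were also gained and were named after their values were seen. These 5 genes had been covered at 0.5 h with 1 or 2 entries, and all of them but Sox4 held at most 2 entries at 2 h. Dlx2, a factor of inhibitory interneurons, went the other way with 4, 4, 4, 3 and 2. With at least 2 entries as the mark of coverage, 3 of the list were gained.

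The neural progenitor markers show how much of the labelled cell type the table can see. Of 13 measured genes the 1 h library covered 6 and the 2 h library 8, and 0 held fewer entries. By the highest site of each gene 1 held fewer, and by the site nearest the 5′ end also 1. Lhx2 (0, 0, 0, 2 and 1) and Sox21 (0, 1, 0, 3 and 1) were gained, each with 1 entry, and with at least 2 entries as coverage 0 of the list were gained. Msi2 held 3, 4, 2, 2 and 3, and Rest, the repressor of neuronal genes, held 2, 6, 5, 6 and 6. Sox9 held 4 in every library. Nes held entries at 1.5 h alone, and the defining markers Pax6, Msi1, Nr2e1 and Sox3 were at 0 in all 5 libraries. For Pax6 and Msi1 the site lay 7455 and 70499 bp inside the gene, so coverage at their 5′ ends cannot be read from it. Sox9, Nes and the markers at 0 were named after their values were seen. Of 10 measured neuron genes 2 held more entries, Mapt and Syp, and 1 fewer, Elavl4 with 3 at 1 h and 1 at 2 h. Markers of other cell types were measured in small numbers. Of the 2 astrocyte genes Nfib held 0, 3, 3, 4 and 5, of the 5 oligodendrocyte genes Cnp held 2 at 1 h and 3 at 2 h, and the 1 mesenchymal gene was Runx2. The single genes of the blood and of the endothelial and epithelial lists held equal values at 1 h and 2 h.

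Among chromatin genes, 2 lists held several gains, read beside the 6.36% gained, 24.3% with more entries and 19.7% with fewer of all genes. Of 51 writers and erasers of histone methylation 8 were gained (15.7%) and 1 was lost, 18 held more entries (35.3%) and 8 fewer (15.7%). Setd7, Kdm7a and Nsd1 are given above, and Prdm10 held 0, 0, 0, 4 and 4. Against them Kmt2a was lost, and Kmt2e held 4, 4, 5, 4 and 2. Of 79 remodellers and readers 10 were gained (12.7%) and 2 lost, 28 held more (35.4%) and 12 fewer (15.2%). Baz2b held 0, 4, 0, 3 and 3, Mta3, a NuRD subunit, 3, 5, 0, 4 and 3, and Rsf1, of an ISWI complex, 0, 6, 3, 3 and 6. The lost genes were Chd4 and Anp32a, a histone chaperone, with 5, 4, 2, 5 and 0, while Rnf2, the Polycomb ubiquitin ligase RING1B, held 1, 4, 4, 2 and 1. Within NuRD, therefore, Mta3 and Mta1 were gained and Chd4 was lost. Of 34 histone acetylation enzymes 1 was gained, Hdac7 with 2, 2, 0, 5 and 4, while 7 held more entries (20.6%) and 10 fewer (29.4%).

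Lists of developmental signalling and patterning are read beside the 24.3% of all genes with more entries, the 19.7% with fewer and the 6.36% gained. In the Wnt list, of 41 genes, 4 were gained and 1 lost, and 14 held more entries and 5 fewer. Fzd8 and Tcf7 were gained, Fzd3 held 1 at 1 h and 3 at 2 h, and the co-repressor Tle1 3 and 5, while Lef1 held 7 and 5, Fzd5 4 and 2 and Bcl9 3 and 1. In the Notch list, of 25 genes, 2 were gained: the receptor Notch1 with 0, 1, 0, 1 and 3 and the fringe enzyme Rfng with 1, 1, 0, 3 and 2. There 8 held more and 4 fewer, with the co-activator Maml2 at 3 and then 1. Of 39 homeobox, Fox, Sox and Zic genes 12 held more entries and 5 fewer, 4 were gained and 0 lost. Foxp1 held 2, 7, 1, 7 and 7 entries 494286 bp downstream of its 5′ end, Six5 0, 3, 1, 2 and 6, and Foxf2 3, 3, 3, 7 and 6. In the axon guidance list, of 37 genes, 3 were gained, 11 held more entries and 6 fewer. The netrins Ntn1 and Ntn4 held 3 and 2 at 1 h and 6 and 5 at 2 h, and Plxna2, a semaphorin co-receptor, held 6 and 3. The Notch and axon guidance lists lay close to the gained share of all genes, at 8% and 8.11%. With at least 2 entries as coverage, 9 Wnt, 6 Notch and 8 homeobox, Fox, Sox and Zic genes were gained.

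Growth-factor signalling gave a mixed picture. The MAP kinase feedback list of 16 genes holds inhibitors and also the transcription factors Etv4 and Etv5. Of the 16, 3 were gained (18.8%), 8 held more entries (50%) and 4 fewer (25%), beside 6.36%, 24.3% and 19.7% of all genes. By the site nearest the 5′ end 6 were gained. Spred2 held 4, 3, 0, 4 and 4, Spry1 1, 2, 0, 4 and 2, and the phosphatase Dusp4 8, 7, 4, 5 and 6, whereas Dusp6 held 3, 5, 5, 3 and 2 and Dusp10 5, 4, 5, 3 and 3. Of 24 genes of the cascade itself 6 held more and 5 fewer. Of 25 immediate early genes 0 were gained or lost, 18 held equal values, 4 held more and 3 fewer, with Fos at 4 and then 2 and Myc at 2 and then 3. The equal ones include 4 genes at 0 at both times, and 1 of these, Jun, held 0, 6, 0, 5 and 0. Of 36 insulin, PI3K, FoxO and mTOR genes 12 held more entries and 5 fewer. Rictor, a subunit of mTORC2, held 2, 4, 2, 5 and 7, Rps6kb1, the S6 kinase, was gained with 2, 2, 0, 3 and 3, and Sesn3, an inhibitor of mTORC1, held 1, 2, 4, 2 and 2. Of 14 genes in the list of the glucocorticoid receptor and its targets 4 held more entries and 6 fewer, with Nr3c1 as the 1 gained gene. Of the other members of that list Tsc22d3 held 1 at 1 h and 3 at 2 h, Sgk1 2 and 3, Cebpd 4 and 3, and Fkbp4, a co-chaperone of the receptor, 4 and 3.

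The tricarboxylic acid cycle and lipid synthesis lists had more genes with fewer entries than with more. Of 13 tricarboxylic acid cycle genes 7 held fewer entries and 1 held more, with 0 gained or lost and a median log2 ratio of -0.42. Dlst and Dld, subunits of the oxoglutarate dehydrogenase complex, held 3, 4, 3, 3, 1 and 5, 4, 3, 3, 2 entries, Pcx, pyruvate carboxylase, held 3, 3, 3, 2 and 1, and Dlat held 2, 3, 3, 2 and 2. The exception was Idh2 with 4, 4, 3, 4 and 4. All 7 that held fewer had 3 entries at 1 h, the level at which 39.4% of all genes held fewer. Of 16 cholesterol and lipid synthesis genes 9 held fewer entries and 2 more, with a median of -0.32. Fasn, fatty acid synthase, held 3, 8, 4, 3 and 3, and Acaca, acetyl-CoA carboxylase, 1, 3, 3, 3 and 2. Scap, which escorts SREBP, held 2, 1, 1, 3 and 3. In both lists the differences were of 1 or 2 entries.

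Of 24 respiratory chain and ATP synthase genes 10 held fewer entries (41.7%) and 5 more (20.8%), beside 19.7% and 24.3% of all genes. Ndufaf3, an assembly factor of complex I, held 3, 3, 3, 3 and 1, and Atp5j, an ATP synthase subunit, held 0, 5, 4, 5 and 5. Mitochondrial ribosome genes gave 6 fewer and 3 more of 22, mitochondrial import 4 fewer and 5 more of 16. Of the mitochondrial ribosome genes covered at both times 28.6% held fewer, close to the 26.7% of all genes so covered. Mitochondrial RNA and genome maintenance, the group nearest to the title of the study, gave 6 more and 3 fewer of 19, with 0 gained or lost. Ppargc1b, a coactivator of mitochondrial biogenesis, held 4, 4, 1, 6 and 4, Gabpb1, a subunit of the factor that controls many mitochondrial genes, held 4, 5, 3, 5 and 5, and Tfb2m, a mitochondrial transcription factor, held 2, 3, 3, 3 and 1. Of 12 genes of mitochondrial dynamics 4 held more and 2 fewer, and Trak1 was gained as shown above. Glycolysis genes gave 3 more and 3 fewer of 13.

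Among lists of RNA and protein handling, several held more genes with fewer entries than with more. Most of their genes were covered at both times, and of all genes so covered 24.9% held more entries and 26.7% fewer. Cytosolic ribosomal protein genes gave 16 with fewer entries and 7 with more of 40, and 1 was gained, Rpl32 with 2, 2, 0, 3 and 2. Ribosomal protein genes have many processed pseudogene copies that can share reads. Splicing genes gave 18 fewer and 11 more of 49, with Sf3b1 at 2, 2, 5, 2 and 2 and Mbnl1 gained at 0, 2, 0, 2 and 3. RNA decay genes gave 11 fewer and 3 more of 38, with the exosome subunits Exosc5 at 2, 3, 4, 2 and 2 and Exosc8 at 6, 4, 6, 4 and 4. In Sf3b1, Exosc5 and Exosc8 the 2 h value equalled that of 1.5 h, and no library held more than that of 1 h. Translation factors and tRNA synthetases gave 15 fewer and 11 more of 46, nuclear pore and transport genes 13 fewer and 10 more of 36, and G2/M genes 12 fewer and 7 more of 37. Ube2d2a, a ubiquitin-conjugating enzyme, held 2, 2, 6, 2 and 3, and Usp24, a deubiquitinase, was gained with 3, 3, 0, 6 and 4, in a list of 91 proteasome and ubiquitin genes with 26 in each direction. Of that list 5 were gained, 11 with at least 2 entries as coverage and 2 by the highest site of each gene.

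The remaining lists are given by their counts, beside the 24.3% of all genes with more entries and the 19.7% with fewer. G1/S and DNA replication genes gave 9 more and 6 fewer of 38, DNA repair 6 more and 8 fewer of 27, heat shock and chaperones 8 more and 5 fewer of 30, and the p53 pathway 3 more and 2 fewer of 12. Stress response and ATF4 genes gave 3 more and 4 fewer of 17, autophagy and lysosome 6 more and 8 fewer of 33, and cytoskeleton and motors 15 more and 10 fewer of 41. The last of these had 2 genes gained and 2 lost. In it Cfl1, cofilin, held 2 entries at each of the first 4 times and 5 at 2 h, and Kif26b held 7, 6, 2, 5 and 5.

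**Figure D5:**
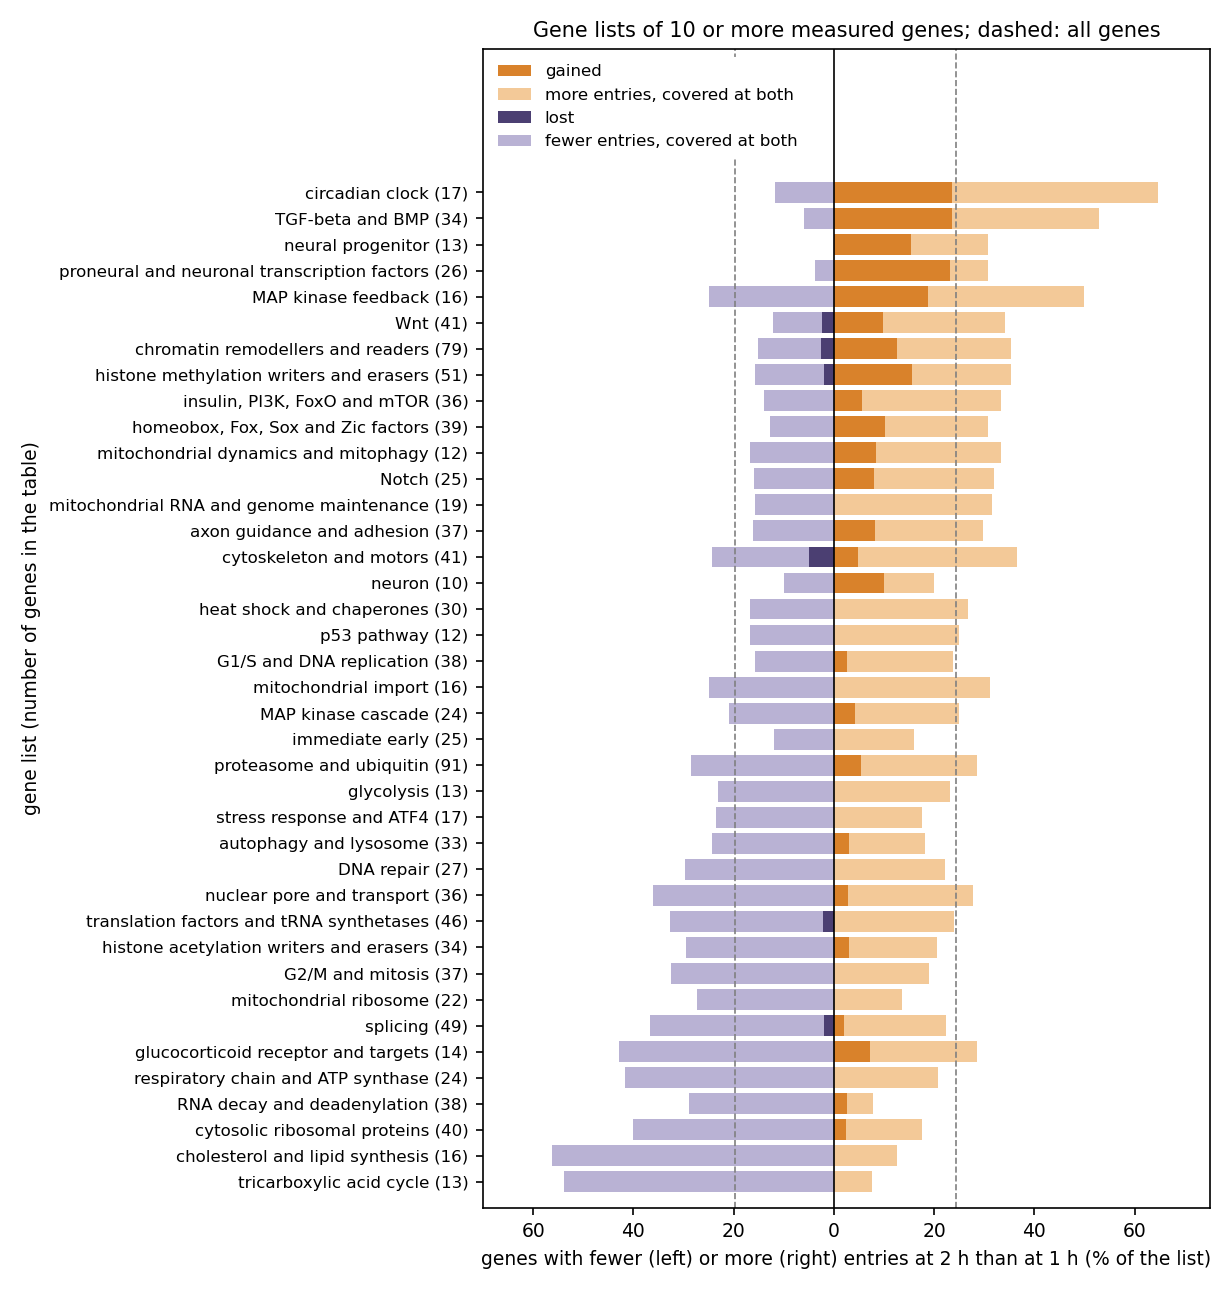
Share of each gene list with more (right) or fewer (left) entries at 2 h than at 1 h, in percent of its measured genes, for lists of at least 10; dark parts are gained and lost genes and dashed lines mark all genes (24.3% more, 19.7% fewer). Circadian clock and TGF-beta and BMP genes lie farthest to the right, and tricarboxylic acid cycle and cholesterol and lipid synthesis genes farthest to the left.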

How the data were processed

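ATAC-seq was run on C17.2 cells at 5 times with 1 library each. The tools named, per the submitters' processing notes, are Bowtie2, MACS2 and deepTools, with build GRCm38 (mm10) and no versions or settings. Not given in the sources used here were read shifting, duplicate treatment, peak thresholds and the origin of the site list. Per the file headers, the deposited values belong to interval files of each library. They are whole numbers that stay equal over neighbouring sites, read here, as an inference, as numbers of entries and not read counts, so the depth and precision are unknown.

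Distances used the RefSeq gene table of GRCm38.p6. Regions were sites merged within 500 bp. Ratios were log2((2 h + 1)/(1 h + 1)), a scale that understates differences of low genes. Python 3.11.15, pandas 2.3.3, numpy 2.4.6 and matplotlib 3.10.9 were used, and the counting was tested on simulated data. With 1 library per time no test was possible. Named genes were the 15 highest and 15 lowest ratios, up to 4 per direction in each of 44 lists and up to 3 per pattern of coverage at other times. Unnamed loci and Galnt2l, a symbol spread over several megabases, were not named. The comparison, the lists and the rules were chosen with earlier results of these data known. Alternatives concerned the entries that make coverage, the site standing for a gene, merging, scaling, pseudocount and filters. Values of some listed genes are not reported here.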

Additional observations from a re-analysis of the deposited data

How the results depend on the processing

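No paired analysis was possible because each time had 1 library. Of 53 alternative counts and shares other than those of gene lists, 38 lay within 1.5 times of the reported value and 15 did not. With at least 2 entries as coverage, 782 genes were gained and 414 lost, 1167 sites were lost, and 423 regions were lost. Over genes at or above the median mean entries, 74 were gained and 5 lost, 216 were 2-fold higher and 109 lower, and 1166 held more entries against 1228 with fewer, a split of 48.7% upward. This filter takes in few genes with a 0 at 1 h. Within 1000 bp of the 5′ end 23 genes were lost. Merging sites within 200 bp gave 864 gained regions. Scaling to equal totals gave 373 genes 2-fold higher, and scaling to equal means 377. Differences of at least 2 entries numbered 734 upward and 349 downward. Of 308 alternative gene list counts 40 moved by more than 1.5 times, 36 of them counts of gained genes. Of 196 alternative log2 ratios of 49 named genes, 103 were equal, 92 differed in size and 1 reversed, that of Cic, at 0.58 by its highest site. By the site nearest the 5′ end 7 named genes had a ratio of 0. For the rest not explained here, the cause was not tested. Unknown depth limits every value.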

Other observations

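A few named chromatin genes showed an alternating course that the comparison of 1 h with 2 h does not count. They were looked up after their values were seen. Kdm5a, a histone H3 demethylase, held 4, 4, 0, 4 and 0 entries at 0, 0.5, 1, 1.5 and 2 h, and Kdm6b, another demethylase, held 4, 0, 0, 4 and 0. Both were uncovered at 1 h and at 2 h and so were neither gained nor lost, although each held 4 entries at 1.5 h. Of all 1699 genes uncovered at 1 h and 2 h, 122 (7.18%) were covered at 1.5 h. The course was not confined to chromatin genes, as Jun held 0, 6, 0, 5 and 0 and Tgif2 held 3, 3, 0, 4 and 0.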
